A study of Homo sapiens with 22 samples.

Results

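The genes followed here are 10 that were picked for large falls of their mRNA or footprints after 6 h of endoplasmic reticulum (ER) stress in LN308 cells: TRIL, S1PR5, APLN, VANGL2, DLX5, WNK4, AATK, B3GNT7, TMEM121 and C4orf54. They are 10 of the 58278 gene entries counted in each library, and all 10 passed the filter on low counts in both assays. They were chosen by the measured fall at 6 h of tunicamycin or thapsigargin, so 6 h levels are given as a description and support nothing, and no numeric threshold came with the choice. LN308 is an established glial line derived from an astrocytoma and deficient in p53. The cells received tunicamycin at 2.5 µg/ml, which blocks N-linked glycosylation, or thapsigargin at 200 nM, which blocks the SERCA pump that fills the ER with calcium. RNA-Seq measured RNA levels, and Ribo-Seq counted the mRNA fragments protected by ribosomes, called footprints. Each assay had 3 untreated libraries (0 h), 3 of tunicamycin at 2 h, 3 of tunicamycin at 6 h, and 1 of thapsigargin at each of 2 h and 6 h. The protocol names a DMSO control, and the 0 h libraries carry the label untreated. None of the 22 libraries is a vehicle or untreated library of 2 h or 6 h. In contrasts with untreated, the drug therefore cannot be told apart from time in culture. If the untreated cells had no DMSO, it cannot be told apart from vehicle either. Whether replicates are separate cultures is not in the labels. The p-values therefore reflect the spread among these libraries alone, and that spread may be technical. In bulk libraries, fewer cells that express a gene and less RNA per cell cannot be told apart.

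Misfolded protein in the ER activates the kinase PERK, the nuclease IRE1 and the membrane-bound factor ATF6. PERK phosphorylates eIF2 and lowers translation initiation, IRE1 splices XBP1 mRNA and can cleave mRNAs at the ER membrane, and ATF6 and the PERK effector ATF4 raise chaperones and stress genes. The 10 genes do not belong to the classic set of targets of this response. TRIL is a leucine-rich repeat partner of Toll-like receptors known from astrocytes, S1PR5 a receptor for sphingosine 1-phosphate found on oligodendrocytes and natural killer cells, and APLN encodes apelin, a secreted peptide ligand. VANGL2 is a core membrane protein of planar cell polarity, and DLX5 is a homeobox transcription factor of bone, face and forebrain development. WNK4 is a kinase that acts through SPAK and OSR1 on cation chloride cotransporters, and AATK is a membrane-bound kinase expressed in neurons. B3GNT7 is a Golgi enzyme that extends poly-N-acetyllactosamine and keratan sulfate chains. TMEM121 is a multi-pass membrane protein, and TMEM121 and C4orf54 are little characterised.

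The 10 genes lie on 8 chromosomes. In RefSeq annotation of GRCh38.p14, TRIL (ENSG00000255690.2) spans chr7:28953358-28958330, DLX5 (ENSG00000105880.4) chr7:97020396-97024831, S1PR5 (ENSG00000180739.13) chr19:10512742-10517965 and APLN (ENSG00000171388.11) chrX:129645259-129654956. VANGL2 (ENSG00000162738.5) spans chr1:160400564-160428670, WNK4 (ENSG00000126562.16) chr17:42780610-42797066 and AATK (ENSG00000181409.11) chr17:81117295-81166221. B3GNT7 (ENSG00000156966.6) spans chr2:231395710-231401164, TMEM121 (ENSG00000184986.10) chr14:105526583-105530198 and C4orf54 (ENSG00000248713.1) chr4:99636529-99657828. The gene spans ran from 3616 bases for TMEM121 to 48927 bases for AATK, against a median of 24097 bases over 20052 protein-coding genes, and 8 of the 10 were shorter than that median. Start regions were at hand for 8 of the 10 genes in RefSeq windows of 300 bases (250 before and 50 after an annotated start, 9 windows with a pair for S1PR5). The windows of AATK (chr17:81131905-81132204) and TMEM121 (chr14:105526855-105527154) lie inside the gene spans given above, as does 1 of the S1PR5 pair. Their starts are therefore not the outer ends of those spans. GC content of the 9 windows ran from 35.0% at C4orf54 to 77.3% at B3GNT7, with a median of 68.0% against 58.7% over all 35116 windows. The letters GGGCGG (GC box) were found on either strand in 7 of the 9 windows and in 45.0% of all windows. The letters CCAAT were in 3 of 9 windows and 34.6% of all, and TATAAA in 2 of 9 and 11.5%. CACGTG and TGACGTCA were in 0 of 9, against 7.26% and 1.85% of all windows, which says only that these letters are not in these windows. No matches of different motifs overlapped in the 9 windows. The 250 bases before the start are shown for the genes at both ends of the GC range and for TRIL, the gene with the lowest fitted RNA change at 6 h of either drug, read 5′ to 3′ on the gene's strand, with matches of the listed motifs in capitals (C4orf54, chr4:99657829-99658078, minus strand; B3GNT7, chr2:231395460-231395709, plus strand; TRIL, chr7:28958331-28958580, minus strand).
C4orf54: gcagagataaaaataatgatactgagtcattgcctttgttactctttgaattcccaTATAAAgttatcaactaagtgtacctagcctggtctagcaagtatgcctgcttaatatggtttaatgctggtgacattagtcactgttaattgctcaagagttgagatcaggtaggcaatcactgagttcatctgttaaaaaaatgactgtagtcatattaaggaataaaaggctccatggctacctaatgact
B3GNT7: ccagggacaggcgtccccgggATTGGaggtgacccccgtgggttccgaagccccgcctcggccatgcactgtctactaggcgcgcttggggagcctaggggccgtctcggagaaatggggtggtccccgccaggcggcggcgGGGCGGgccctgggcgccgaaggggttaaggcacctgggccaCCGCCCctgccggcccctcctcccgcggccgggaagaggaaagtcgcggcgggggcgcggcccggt
TRIL: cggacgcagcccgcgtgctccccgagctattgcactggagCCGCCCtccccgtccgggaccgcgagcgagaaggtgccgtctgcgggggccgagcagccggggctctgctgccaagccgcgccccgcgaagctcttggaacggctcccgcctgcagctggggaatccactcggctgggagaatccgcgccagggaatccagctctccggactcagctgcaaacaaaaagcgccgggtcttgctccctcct
The C4orf54 stretch holds a TATAAA match and no GC box, the B3GNT7 stretch a pair of GC boxes and the inverted CCAAT letters, and the TRIL stretch 1 GC box. A match in these letters is a description of the sequence and was not measured as a bound site.

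Totals were 101.4 to 166.6 M counts per RNA-Seq library and 4.387 to 29.18 M per Ribo-Seq library. Over all libraries of a group the 10 genes held 185 to 12304 counts in untreated RNA-Seq, 12 to 1530 in the RNA-Seq library of thapsigargin at 6 h, and 0 to 314 in footprints of tunicamycin at 6 h, so footprint values at 6 h are the least precise. Untreated replicate 1 of RNA-Seq stood apart: it had counts in 53489 entries, where the rest of RNA-Seq had them in 38264 to 40331, and 69.33% of 375 olfactory receptor genes had 10 or more counts, against 2.93 to 5.60%. Levels are given as CPM, counts per M counts of the library after TMM scaling, as mean ± SD over libraries, and results with untreated replicates 2 and 3 alone are given beside those with all 3. The stress markers HSPA5, HERPUD1, DDIT3 and TRIB3 passed the test, higher, in 4 of 4 in RNA-Seq at 6 h of both drugs. Of 13 glial markers 9 had a mean RNA level of 1 CPM or more, while AQP4, ALDH1L1, SOX9 and SLC1A2 were below it. Glial markers summed to 1460 to 4450 CPM in untreated and 2780 to 3950 CPM in tunicamycin 6 h libraries. Blood cell markers (0 of 6 at 1 CPM or more, HBB never above 0.1 CPM) summed to 0.979 to 3.12 CPM in untreated and 1.11 to 1.19 CPM in tunicamycin 6 h libraries. Neuron markers (4 of 5) summed to 170 to 235 CPM and 235 to 275 CPM, fibroblast markers (3 of 5) to 17.1 to 17.5 CPM and 10.6 to 15.5 CPM, and epithelial markers (2 of 5) to 55.8 to 70.4 CPM and 84.6 to 138 CPM. The part of these other cell type markers in the falls below was not tested.

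At 6 h of tunicamycin all 10 genes had lower RNA in each of the 3 libraries than in any untreated library, and mean levels were 8.16% (TRIL) to 43.4% (WNK4) of the untreated mean, with a median of 26.1%. The same non-overlap held for 10.6% of all 41130 genes tested in RNA-Seq, and since the 6 h values chose these genes nothing is read from the count. Against untreated replicates 2 and 3 alone the median was 25.9%, and all 10 again lay below both (18.5% of all genes). Within each replicate number, tunicamycin 6 h libraries held a median of 15.0%, 31.8% and 26.8% of the level of the untreated library with the same number, in replicates 1, 2 and 3. The fitted log2 fold changes ran from -3.62 to -1.20 with a median of -1.93, where the median of all genes was -0.27 and 20% of all genes lay below -2. This median of all genes was -0.01 without untreated replicate 1 and -0.04 in a fit of the compared groups with that library kept. With scaling by library size alone it was -0.58. The share of all genes below -2 was 19.3% at 2 h of tunicamycin against untreated, and 1.89% for 6 h against 2 h. Untreated replicate 1 had counts in the most entries and enters both contrasts with untreated. Its part in these shares was not tested. With edgeR's quasi-likelihood test TRIL, S1PR5, APLN, B3GNT7, TMEM121 and C4orf54, 6 of the 10, were called lower (adjusted p under 0.05), against 0.275% of all genes. The number was 1, 2 and 0 without tunicamycin 6 h replicate 1, 2 or 3, with 287, 272 and 187 calls over all genes. Without untreated replicate 2 it was 2, with 195 calls over all genes. DESeq2 called 9, all but WNK4 (8.17% of genes with an adjusted p). The fit of replicates 2 and 3 alone also called 9, all but DLX5, and 5477 over all genes. With the replicate number as a block 6 were called, with DLX5 in place of TRIL, and the count over all genes rose from 617 to 1624.

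**Figure D1:**
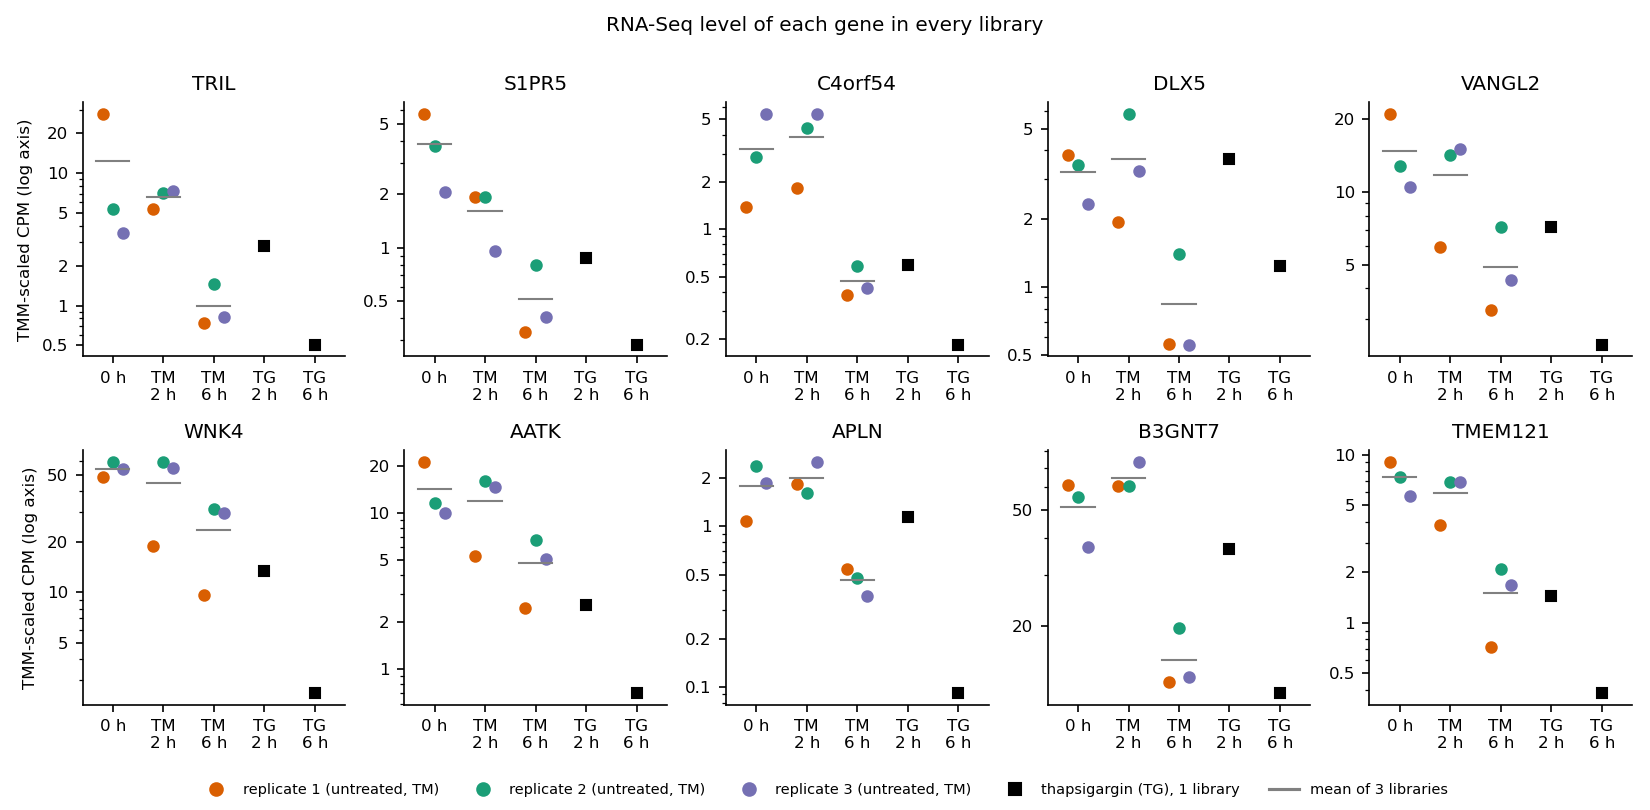
RNA-Seq level of the 10 genes (TMM-scaled CPM, log axis) in each of the 11 libraries at 0 h, tunicamycin (TM) 2 h and 6 h and thapsigargin (TG) 2 h and 6 h; circles are replicates, squares single thapsigargin libraries and grey bars means of 3 libraries. At TM 6 h all 3 libraries lie below all untreated libraries for all 10 genes, and at TM 2 h this holds for S1PR5.

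Among the receptors and their ligands, TRIL had the widest spread before treatment. Its RNA level was 28.0, 5.33 and 3.50 CPM in untreated replicates 1, 2 and 3, then 5.35, 7.06 and 7.28 CPM at 2 h and 0.738, 1.45 and 0.812 CPM at 6 h of tunicamycin. The untreated mean of 12.3 ± 13.6 CPM (SD, n = 3) thus rests on replicate 1, which was 6.34 times the mean of the others, while the 6 h libraries at 1.00 ± 0.393 CPM lay below all 3. TRIL footprints were 74.1, 12.0 and 4.32 CPM in the untreated libraries, so replicate 1 was high in both assays, 9.05 times the mean of the others in footprints. Footprints of TRIL at 6 h of tunicamycin were 2.09, 1.46 and 1.12 CPM, below all untreated libraries. The fitted RNA log2 fold change was -3.62 ± 0.719 (SE) with replicate 1 and -2.13 without it. At 2 h it was -0.90 with replicate 1 and 0.59 without it, so the direction for TRIL at 2 h turned on that library.

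S1PR5 was the only 1 of the 10 that was below every untreated library at 2 h of tunicamycin already, and it was so in both assays. Its RNA level was 5.69, 3.76 and 2.07 CPM untreated, 1.92, 1.94 and 0.953 CPM at 2 h and 0.336, 0.803 and 0.406 CPM at 6 h. Footprints were 13.8, 7.34 and 7.88 CPM untreated, 2.68, 5.76 and 4.09 CPM at 2 h and 0.557, 1.10 and 1.56 CPM at 6 h. In both assays the order was untreated, 2 h, 6 h from high to low, with no overlap between neighbouring times. The 2 h libraries had no part in choosing the gene, but the untreated libraries did. The 2 h difference did not pass the test in RNA (log2 fold change -1.26 ± 0.461, adjusted p = 0.548) or in footprints (-1.21 ± 0.563, adjusted p = 1.0, both edgeR). Non-overlap of this kind at 2 h was found for 5.88% of all genes in RNA and 3.76% in footprints, and 1 of 10 is near that background. Against untreated replicates 2 and 3 alone S1PR5 was again the 1 gene of the 10, with 12.2% of all genes in RNA and 8.14% in footprints.

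APLN behaved otherwise at 2 h. Its RNA was 1.08, 2.37 and 1.85 CPM untreated and 1.83, 1.61 and 2.51 CPM at 2 h of tunicamycin, with overlapping groups, then 0.540, 0.478 and 0.369 CPM at 6 h. In the thapsigargin libraries it was 1.14 CPM at 2 h and 0.0919 CPM at 6 h, the latter from 12 counts. Apelin footprints were 1.35, 4.24 and 5.18 CPM untreated and 0, 0.365 and 1.79 CPM at 6 h of tunicamycin, so replicate 3 at 6 h overlapped untreated replicate 1. The footprint library of thapsigargin at 6 h held 0 APLN counts, which puts APLN at least 8.01-fold lower than the untreated mean, or at least 10.5-fold lower than replicates 2 and 3, with 3 counts per library as the floor.

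VANGL2 RNA was 21.1, 12.8 and 10.5 CPM untreated, 5.96, 14.3 and 15.1 CPM at 2 h and 3.26, 7.17 and 4.32 CPM at 6 h of tunicamycin. At 2 h replicate 1 alone was below all untreated libraries, and at 6 h all 3 were. VANGL2 footprints were 67.6, 25.1 and 22.0 CPM untreated and 6.97, 7.55 and 10.2 CPM at 6 h, with no overlap. DLX5 RNA was 3.82, 3.46 and 2.33 CPM untreated, 1.94, 5.81 and 3.25 CPM at 2 h and 0.560, 1.40 and 0.554 CPM at 6 h. Its footprints were 8.31, 8.15 and 4.75 CPM untreated and 0.279, 0.731 and 0.893 CPM at 6 h of tunicamycin, the last 3 from 2, 6 and 8 counts. At 6 h of thapsigargin DLX5 footprints were 5.10 CPM, from 34 counts, inside the untreated range and 8.05 times the tunicamycin mean. TRIL footprints, at 2.10 CPM in that library, were also above all 3 tunicamycin libraries, at 1.35 times their mean. DLX5 RNA in that library was 1.23 CPM, below all untreated libraries and inside the tunicamycin range.

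The kinase WNK4 had even untreated RNA levels of 48.4, 59.5 and 53.9 CPM, and 18.8, 59.5 and 55.1 CPM at 2 h of tunicamycin. At 6 h the levels were 9.67, 31.1 and 29.4 CPM, so replicate 1 was low at both times, 0.328 times the mean of the others at 2 h and 0.319 times at 6 h. In the thapsigargin libraries WNK4 RNA was 13.4 CPM at 2 h and 2.52 CPM at 6 h. WNK4 footprints were 115, 74.6 and 50.3 CPM untreated, 14.1, 32.1 and 22.8 CPM at 6 h of tunicamycin and 12.6 CPM at 6 h of thapsigargin, all 4 below the untreated libraries. AATK RNA was 21.1, 11.6 and 9.91 CPM untreated, 5.30, 16.0 and 14.5 CPM at 2 h and 2.47, 6.73 and 5.09 CPM at 6 h of tunicamycin. It was 2.57 CPM at 2 h and 0.704 CPM at 6 h of thapsigargin, below every tunicamycin library of the same time. AATK footprints were 44.1, 9.75 and 21.6 CPM untreated and 3.62, 6.70 and 5.25 CPM at 6 h of tunicamycin, with no overlap.

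The annotated AATK span also holds microRNA precursors, shown here because reads counted to one of them can be set beside AATK itself. The mature sequences from RefSeq (GRCh38.p14), with the seed (bases 2 to 8) in capitals, are those of the precursors MIR657 and MIR338.
hsa-miR-657: gGCAGGUUcucacccucucuagg
hsa-miR-338-3p: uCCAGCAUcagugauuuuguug
hsa-miR-338-5p: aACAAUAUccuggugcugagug
The MIR657 entry had 35, 10 and 15 RNA-Seq counts untreated, 2, 12 and 14 at 2 h and 1, 6 and 10 at 6 h of tunicamycin, then 9 and 3 at 2 h and 6 h of thapsigargin. The 6 h tunicamycin counts overlapped the untreated ones at 10, and replicate 1 was again the lowest at both times. MIR338 had 0 counts in each of the 11 libraries. These libraries are of total RNA and do not measure mature microRNAs, and reads of the host transcript and of a precursor inside it cannot be told apart.

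B3GNT7 was not lower at 2 h of tunicamycin. Its RNA was 61.1, 55.7 and 37.3 CPM untreated and 60.5, 60.9 and 73.5 CPM at 2 h of tunicamycin, overlapping and on average higher (log2 fold change 0.34 ± 0.256, adjusted p = 0.615, edgeR). At 6 h it was 12.8, 19.6 and 13.3 CPM, and in thapsigargin 36.7 CPM at 2 h and 11.7 CPM at 6 h. Its footprints were 115, 101 and 88.7 CPM untreated, 98.8, 100 and 213 CPM at 2 h and 42.5, 30.2 and 35.0 CPM at 6 h of tunicamycin. The untreated and 6 h libraries did not overlap in either assay, and the footprint library of replicate 3 at 2 h stood above the others. TMEM121 RNA was 9.06, 7.39 and 5.66 CPM untreated, 3.84, 6.91 and 6.92 CPM at 2 h and 0.718, 2.09 and 1.68 CPM at 6 h of tunicamycin. In thapsigargin TMEM121 RNA was 1.45 CPM at 2 h and 0.383 CPM at 6 h, while its footprints were 16.1 and 7.06 CPM against 39.5, 22.5 and 21.3 CPM untreated. C4orf54 RNA was 1.39, 2.86 and 5.42 CPM untreated, 1.83, 4.40 and 5.37 CPM at 2 h and 0.382, 0.587 and 0.425 CPM at 6 h of tunicamycin. For C4orf54 and APLN untreated replicate 1 was the lowest of the 3, 0.335 and 0.514 times the mean of the others. C4orf54 footprints had 0 counts in tunicamycin 6 h replicate 1 and in thapsigargin 6 h, the latter at least 6.14-fold lower than the untreated mean, or at least 7.91-fold lower than replicates 2 and 3.

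**Figure D2:**
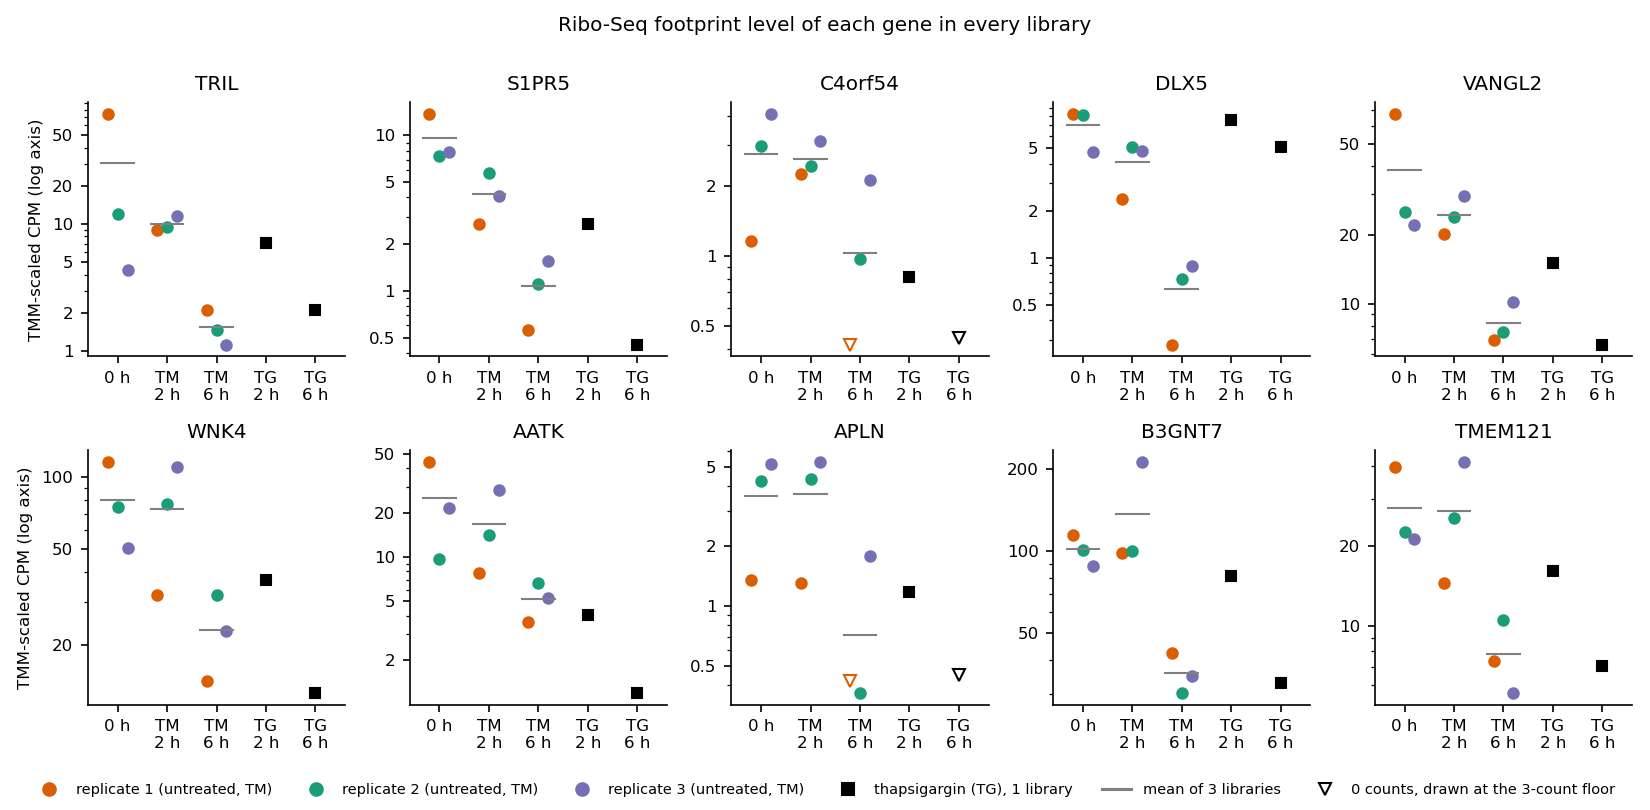
Ribo-Seq footprint level of the 10 genes (TMM-scaled CPM, log axis), drawn as in the plot of RNA levels, with open triangles for libraries of 0 counts at the floor of 3 counts. At TM 6 h the libraries lie below all untreated ones for 8 genes, APLN and C4orf54 overlap, and DLX5 at TG 6 h (5.10 CPM) stays within its untreated range.

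In footprints of tunicamycin at 6 h, 8 of the 10 genes were below every untreated library, against 11.1% of 19411 genes tested, and all 10 were below replicates 2 and 3 (19.4% of genes), and mean levels were 5.16 to 37.5% of the untreated mean. The fitted log2 fold changes had a median of -2.24 (all genes -0.07) and ran from -4.28 for TRIL to -1.38 for C4orf54, and 6 of the 10 lay below -2, against 4.94% of all genes. With edgeR S1PR5, DLX5 and VANGL2 were called lower, 3 of 10 against 0.170% of all genes. With the replicate block 4 were called, B3GNT7 in addition, and the count over all genes rose from 163 to 386. Without untreated replicate 1 the median was -1.62, and DLX5 alone was called. Without either untreated replicate 2 or any of the 3 tunicamycin libraries 0 were called, and without untreated replicate 3 TRIL alone was. Calls over all genes were 34 to 166 with 1 library left out, against 163 with none left out. Footprints relative to RNA could be set against other genes in the untreated libraries, which are not a 6 h measure. The ratio ranked between the 75.3rd and the 96.6th percentile of 18500 genes for 9 of the 10. TMEM121 was at the top (log2 ratio 1.81 ± 0.260, SD, n = 3), and C4orf54 was at 42.7. The 18500 were all entries tested in both assays and were not limited to protein-coding genes. A high rank is therefore not a rank among coding genes. The share of each mRNA that is coding enters this ratio, and which features were counted is not given in the sources used here. Translational efficiency, the change of footprints beyond that of RNA, was tested at 2 h of tunicamycin with edgeR: 0 of the 10 and 0 of 18500 genes (0.00%) were called, with 740 genes (4.00%) and 0 of the 10 at an unadjusted p under 0.05. The members' median log2 change was -0.13 (all genes -0.02) and the values ran from -0.88 for DLX5 to 0.41 for TMEM121. At 6 h of tunicamycin the values had a median of -0.37 (all genes -0.08), with DLX5 at -1.42 ± 0.818 and C4orf54 at 1.47 ± 1.11. There 0 of the 10 and 0 of 18500 genes (0.00%) were called. In thapsigargin the members' median was 0.34 at 2 h (all genes -0.16) and 0.49 at 6 h (all genes -0.25), from 1 library each. None of the 10 was called at 2 h (0.00541% of all genes) or 6 h (0.00%), with 0 of the 10 at an unadjusted p under 0.05 at 2 h (821 genes of all). TMEM121 had the highest values, 1.75 ± 0.938 at 2 h and 2.45 ± 0.974 at 6 h, and the 6 h values of APLN and C4orf54 cannot be read, since their footprints had 0 counts.

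At 2 h of tunicamycin the 10 genes were mixed. In RNA 6 of 10 had a log2 fold change below 0, against 60.3% of all genes, the median was -0.27 (all genes -0.17), and the values ran from -1.26 for S1PR5 to 0.34 for B3GNT7. None of the 10 was called by edgeR, with 0.00973% of all genes called, 1 of the 10 at an unadjusted p under 0.05 (8.06% of all genes), and 0 called by DESeq2 (0.248% of genes with an adjusted p). Against untreated replicates 2 and 3 the median level was 97.7% of untreated, and it was 83.2% against all 3. The median change was 0.10 without tunicamycin 2 h replicate 1. Within replicate numbers the 2 h level was a median of 40.6% of untreated in replicate 1 and 110% and 138% in replicates 2 and 3. Untreated and 2 h libraries of the same number were not taken as pairs. The 40.6% is also relative to untreated replicate 1, the library that stood apart. A difference in direction between replicates is therefore not read from these ratios. The mitochondrial mRNA share of RNA-Seq counts was 0.443% and 0.479% in tunicamycin replicate 1 at 2 h and 6 h and 0.587% and 0.492% in the thapsigargin libraries, against 1.06 to 1.61% elsewhere; its part in these levels was not tested. In footprints at 2 h the median change was -0.37 (all genes -0.02), with 0 of the 10 and 0.00% of all genes called by edgeR, 0 of the 10 at an unadjusted p under 0.05 (3.19% of all genes) and 0 of the 10 by DESeq2 (0.0207% of genes with an adjusted p). Without untreated replicate 1 that median was 0.08.

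**Figure D3:**
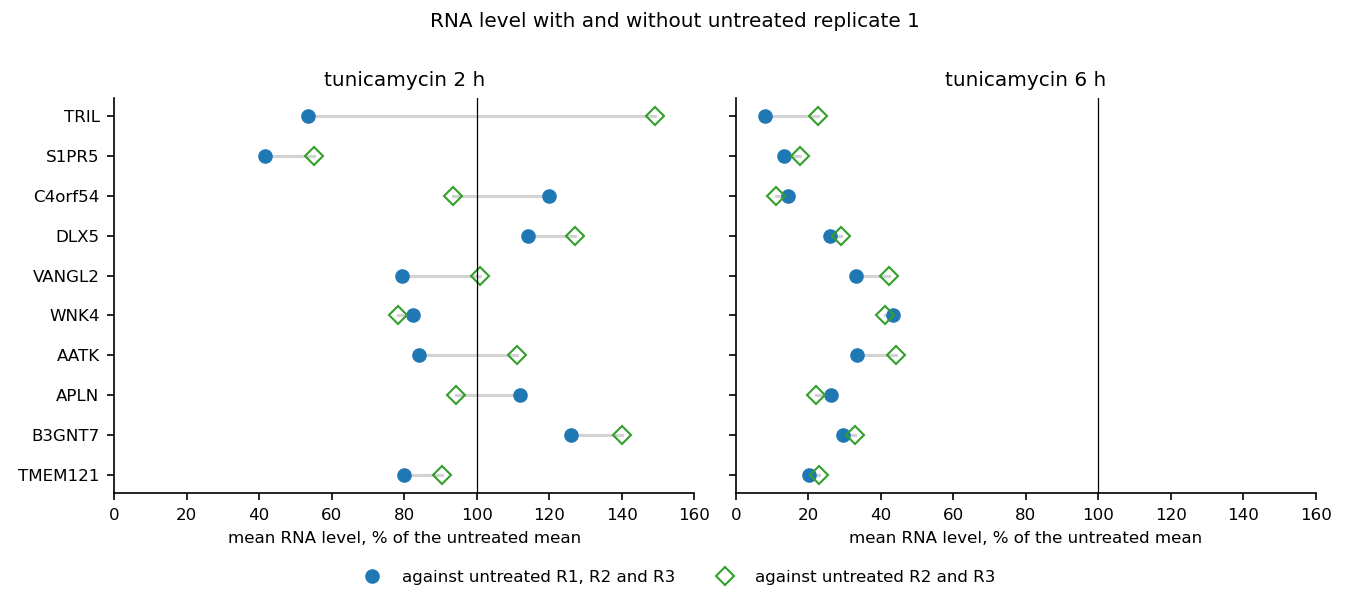
Mean RNA level of each gene after tunicamycin as a percent of the untreated mean, with all 3 untreated libraries (filled circles) and with replicates 2 and 3 alone (open diamonds). At 2 h TRIL moves from 53.5% to 149%, and at 6 h all 10 genes stay under 45% either way, with TRIL at 8.16% and 22.7%.

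Thapsigargin was measured in 1 library per time, so its tests borrow the spread of the other groups and have no replicate check. At 6 h all 10 genes had lower RNA than every untreated library (28.6% of all genes did), at 4.12% to 38.2% of the untreated mean with a median of 5.46%. Against replicates 2 and 3 the median was 8.13%, and again all 10 were lower (39.0% of all genes). The fitted RNA changes had a median of -4.18 (all genes -0.50), or -3.65 without untreated replicate 1. With edgeR WNK4, AATK, APLN, B3GNT7 and TMEM121 were called lower, 5 of 10 against 0.301% of all genes. That number was 6 with the replicate block, which added S1PR5 and C4orf54 and lost AATK, and under which calls over all genes rose from 737 to 1437, 8 without untreated replicate 1 and 1 without untreated replicate 2. Fitted with the groups compared alone, no gene of all those tested was called, the 10 included. Calls over all genes moved with each of these fits, so nothing is read from the number among the 10. In footprints at 6 h, 9 of the 10 were below every untreated library, DLX5 being the exception, against 33.9% of all genes, and the same 9 were below replicates 2 and 3 (44.9%). The fitted median was -3.25, or -2.64 with APLN and C4orf54 at their bounds from 0 counts. Of the 10, 0 were called by edgeR in footprints (0.227% of all genes lower), 9 had an unadjusted p under 0.05 (14.2% of all genes), and DESeq2 called 6 (7.45% of genes with an adjusted p); nothing is read from these counts, since this contrast chose the genes.

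The choice of the genes did not use the 2 h libraries, but it used the untreated libraries. Contrasts of 2 h with untreated are therefore not independent of the choice. At 2 h of thapsigargin 8 of the 10 had lower RNA than every untreated library, against 24.9% of all genes. The exceptions were DLX5 at 3.67 CPM and APLN at 1.14 CPM, both inside the untreated range. The median level was 23.8% of untreated. Against replicates 2 and 3 it was 42.1%, and 9 of the 10 were lower, APLN now among them (35.7% of all genes). With edgeR 0 of the 10 were called lower (0.00243% of all genes, 0.0997% in either direction), 5 had an unadjusted p under 0.05 (10.5% of all genes), and DESeq2 called 3, C4orf54, AATK and TMEM121 (3.39% of genes with an adjusted p). The largest fitted change was that of AATK (log2 fold change -2.47 ± 0.800, adjusted p = 0.367) and the smallest adjusted p that of TMEM121 (-2.34 ± 0.660, adjusted p = 0.295, both edgeR). With the replicate block the median moved from -2.07 to -1.41, and calls over all genes rose from 41 to 247. In footprints 8 of 10 were below every untreated library (26.3% of all genes), and 8 below replicates 2 and 3 (39.7%), with a median log2 fold change of -1.47, or -0.66 without untreated replicate 1. By edgeR 0 of the 10 were called lower there (0.0258% of all genes), 1 had an unadjusted p under 0.05 (5.47% of all genes), and DESeq2 called 0 (1.34% of genes with an adjusted p).

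**Figure D4:**
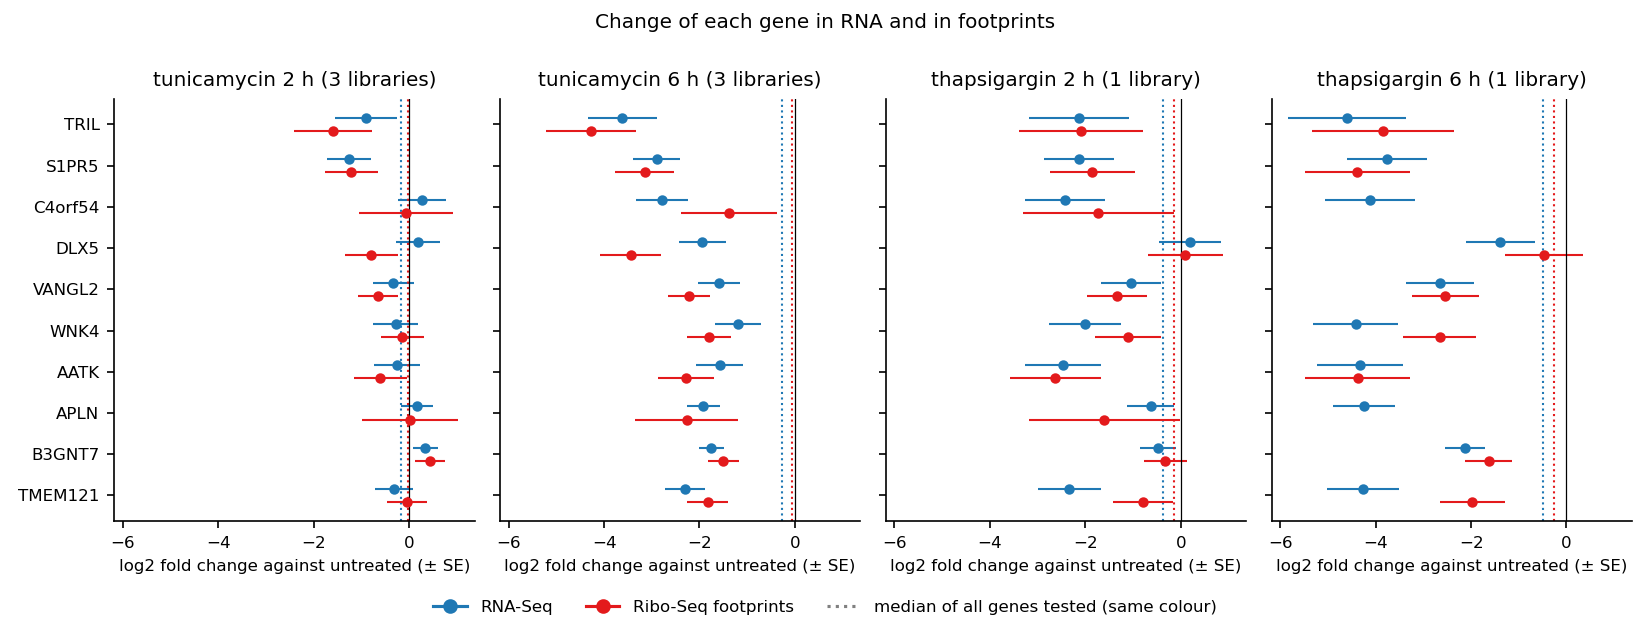
Fitted log2 fold change ± SE of each gene against untreated cells in RNA-Seq (blue) and footprints (red), by drug and time; dotted lines are the medians of all genes tested, and the footprint points of APLN and C4orf54 at thapsigargin 6 h are left out because that library held 0 counts. RNA changes at tunicamycin 2 h lie between -1.26 and 0.34, and at 6 h between -3.62 and -1.20.

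The drugs were compared directly at 2 h. Thapsigargin RNA levels were below all 3 tunicamycin libraries for 8 of the 10, all but VANGL2 and DLX5, against 21.9% of all genes, with a median log2 difference of -1.05 (all genes 0.00). None of the 10 was called by edgeR (0.0267% of all genes, none of them lower in thapsigargin), 4 had an unadjusted p under 0.05 (5.35% of all genes), and DESeq2 called 1, C4orf54 (1.14% of genes with an adjusted p). The largest difference was that of C4orf54 (-2.70 ± 0.858, adjusted p = 0.696, edgeR), and for DLX5 it was 0.00 ± 0.661. Against tunicamycin replicate 1 alone, the library whose low mitochondrial share is nearest that of the thapsigargin libraries, the thapsigargin RNA level was lower for 8 of the 10, from 0.324 times for C4orf54, 0.378 times for TMEM121, 0.457 times for S1PR5 and 0.486 times for AATK through 0.523 times for TRIL, 0.607 times for B3GNT7 and 0.622 times for APLN to 0.712 times for WNK4. It was higher for VANGL2, at 1.20 times, and DLX5, at 1.89 times. This sets 1 library against 1, and the share of all genes lower was not counted. Nothing is therefore read from the 8 of 10. In footprints at 2 h thapsigargin was below all tunicamycin libraries for 7 of the 10 (19.6% of all genes), and DLX5 was above all 3 (21.3% of all genes). By edgeR 0 of the 10 were called there (0.0258% of all genes in either direction, 0.00515% lower), with 1 at an unadjusted p under 0.05 (3.78% of all genes). At 6 h, which chose the genes, thapsigargin RNA was below all tunicamycin libraries for 9 of the 10 (26.0% of all genes), from 0.108 times the tunicamycin mean for WNK4 to 0.769 times for B3GNT7, and DLX5 was at 1.46 times, within the tunicamycin range. The edgeR fit of that difference called 0 of the 10 and 0.00% of all genes, with 4 of the 10 and 5.69% of all genes at an unadjusted p under 0.05. In footprints at 6 h thapsigargin was below all tunicamycin libraries for 4 of the 10 (30.9% of all genes) and above all for TRIL and DLX5 (27.5%). Doses were single, and each comparison with untreated cells shares the same untreated libraries.

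Timing within tunicamycin varied between the genes. The 6 h RNA level was below that at 2 h in the fit for all 10, with log2 differences from -3.06 ± 0.550 for C4orf54 to -0.93 ± 0.476 for WNK4 and a median of -2.03 (all genes 0.00). Each of the 10 was lower at 6 h than at 2 h within each replicate number. The share of all genes lower within each number was not counted. In the fit, 48.8% of all genes were lower at 6 h than at 2 h. In edgeR C4orf54, APLN and B3GNT7 were called lower at 6 h than at 2 h (0.153% of all genes were). With the replicate block DLX5 and TMEM121 were called in addition, 5 of the 10 against 1.05% of all genes, and WNK4, at -0.93 ± 0.309, was not. These values rest on the same 6 h libraries that chose the genes. The RNA profiles of the 10 genes over the 10 RNA-Seq libraries other than untreated replicate 1 had pairwise Pearson r of 0.51 to 0.99 with a median of 0.85 over 45 pairs, a description of genes chosen for the same fall and measured in the same libraries. Among 12315 other protein-coding genes with a mean of 1 CPM or more, those with profiles most like the mean of the 10 were MYD88 (r = 0.996), SAMD1 (0.995), ADCY9 (0.993), GYS1 (0.990) and VASH1 (0.990), over the same 10 libraries. MYD88, the adaptor of Toll-like receptors, went from a mean of 19.0 CPM in untreated replicates 2 and 3 to 9.80 CPM at 6 h of tunicamycin and 6.68 CPM at 6 h of thapsigargin.

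Genes of the pathways around the 10 were set beside the share of all genes called. At 6 h of tunicamycin 0 of 12 other genes of sphingosine 1-phosphate signalling, 0 of 13 of Toll-like receptor complexes, 0 of 18 of planar cell polarity, 0 of 15 of WNK-SPAK cotransport and 0 of 5 of the AATK and TMEM121 families were called in RNA by edgeR, in either direction (1.50% of all genes were). Their median log2 fold changes were -0.21, -0.07, -0.16, -0.10 and -1.20 (all genes -0.27). Of 21 genes around DLX5 (DLX, MSX and BMP-RUNX genes) 1 was lower, BMP4, a bone morphogenetic protein (-1.34 ± 0.239, adjusted p = 0.0232), with a list median of -0.55. Of 14 genes of poly-N-acetyllactosamine and keratan sulfate synthesis 1 was lower, the sulfotransferase CHST6 (-1.07 ± 0.203, adjusted p = 0.0300), with a median of -0.54. Of 7 genes of the apelin system and endothelial peptides 1 was higher, the growth factor VEGFA (2.61 ± 0.441, adjusted p = 0.0189), with a median of -0.91. Of 13 glial markers 1 was higher, the filament gene GFAP (1.15 ± 0.246, adjusted p = 0.0493, all edgeR), with a median of -0.82. At 2 h of tunicamycin 0 genes of these lists were called in RNA.

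The nearest protein-coding neighbours gave a comparison by position. Of 19 neighbours found, 18 were tested. At 6 h of tunicamycin 0 were called in RNA by edgeR. Their median log2 fold change was -0.20, and the values ran from -5.92 to 0.73. The largest falls were those of XPNPEP2 next to APLN (-5.92), CPVL next to TRIL (-3.79) and SLAMF6 next to VANGL2 (-3.76). These falls are not set apart from the spread between libraries, as 0 of the 18 neighbours were called. At 6 h of thapsigargin 1 was called, ARMC9 next to B3GNT7, which was higher (1.44, adjusted p = 0.0214, edgeR; 1.79% of all genes were called). DLX6, the homeobox gene 9356 bases from DLX5, had a change of -1.81 (adjusted p = 0.104, edgeR) at 6 h of tunicamycin, with mean RNA levels of 3.96 ± 1.93 CPM untreated and 1.13 ± 0.538 CPM at 6 h (SD, n = 3). VPS25 and COA3, 1011 and 559 bases from WNK4, had changes of 0.13 and -0.19. BAIAP2 overlaps the end of AATK on the opposite strand, and had 6162, 9463 and 7979 counts untreated and 3760, 6260 and 5176 at 6 h of tunicamycin. How the counting treated strand and overlaps is not given in the sources used here, so reads shared by AATK and BAIAP2 cannot be told apart.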

How the data were processed

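Total RNA and ribosome footprints of LN308 cells were given as raw counts per gene in 22 libraries, as deposited by the authors. STAR 2.5.4b, HTSeq, DESeq2 and build GRCh38 are named in the submitters' processing notes; which step each served, and the annotation, counted features and strand rule, is not given in the sources used here. Footprints came from 27 to 33 nt fragments after cycloheximide at 0.1 mg/ml for 5 min, per the labels' protocols, a drug that can shift ribosomes along mRNAs. Of 58278 entries 57437 got a symbol from the reference tables. Genes kept by filterByExpr (minimum count 10) were scaled by TMM and fitted in edgeR 4.0.16 (R 4.3.3; glmQLFit robust, glmQLFTest) over all groups of an assay, and p-values were adjusted by Benjamini-Hochberg over all genes tested. Log2 fold changes have SEs taken from the F statistic. Translational efficiency was an interaction of assay and treatment in 1 edgeR model. Alternatives were DESeq2 1.42.0, other scaling, no low-count filter, fewer groups, a replicate block and leaving out libraries. The fits were tested on simulated counts. Pairing by number was checked ahead of any look at the fits' calls, through deviations from group means. In RNA-Seq, libraries with the same number correlated at 0.211 to 0.444 between untreated cells and 6 h of tunicamycin. For 2 h and 6 h the range was 0.699 to 0.840, and in Ribo-Seq it was 0.138 to 0.473. All were above 0.1, so numbers were taken as pairs there. In RNA-Seq, replicates 2 and 3 also passed 0.1 with another number. Those values reached 0.265 for untreated and 6 h, and 0.589 for 2 h and 6 h. The value for the same number was higher each time, but the mark of 0.1 alone does not set these replicates apart as pairs. No pair of replicates held equal counts (chi-square per degree of freedom 25.8 to 543). The 10 genes and the lists of related genes were chosen with earlier results of these data known. The rule named all 10 genes in every comparison, in sentences or in ranges and plots, with the nearest protein-coding gene on each side, called genes of each list (at most 2 per comparison) and the 5 genes most like their mean profile. Sequences and positions are from RefSeq, GRCh38.p14. No start windows for DLX5 and WNK4 and no protein sequences were used.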

Additional observations from a re-analysis of the deposited data

Results flagged for a closer look

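B3GNT7 RNA was above the untreated mean of 51.4 CPM in each of the 3 libraries of tunicamycin at 2 h, with a mean of 64.9 CPM, and below it in each of the 3 libraries at 6 h, with a mean of 15.2 CPM. The times thus moved in opposite directions from the untreated mean. As the 6 h libraries chose the gene, this difference was not tested apart from the fit of 6 h against 2 h in the text, and the 2 h libraries overlapped the untreated ones (37.3 to 61.1 CPM against 60.5 to 73.5 CPM).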

How the results depend on the processing

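In the fit of the text, 63% of all genes tested in RNA lay below 0 at 6 h of tunicamycin and 64.2% at 6 h of thapsigargin. In footprints the shares were 53.9% and 59.6%. Under each alternative run, all 10 genes kept a negative log2 fold change at 6 h of both drugs in both assays. The 6 h falls chose the 10 genes, so nothing is read from this sign. Their median at 6 h of tunicamycin in RNA moved by less than the spread between replicates, and the number called was 0 to 6 when 1 library was left out, 9 with DESeq2 and with replicates 2 and 3 alone, 3 when the fit held just the compared groups, and 10 with the replicate block and untreated replicate 1 left out, an alternative chosen after seeing the data like that of replicates 2 and 3 alone. In RNA at 6 h of thapsigargin the number called was 2 with library size alone, 9 with DESeq2, 0 with the compared groups alone, 1 to 8 with 1 library left out and 9 with the block without untreated replicate 1; the median was -3.83 with the replicate block, -2.71 with that block without untreated replicate 1, and -4.14 to -3.65 with 1 library left out. In RNA at 2 h of thapsigargin the median was -2.43 with library size alone, -1.41 with the replicate block, -0.60 with the block without untreated replicate 1 and -2.04 to -1.37 with 1 library left out; DESeq2 called 3 and the block without untreated replicate 1 called 4, of which DLX5 was higher (1.30). DESeq2 called 1 between the drugs at 2 h. At 2 h of tunicamycin the RNA median reversed to 0.30 with replicates 2 and 3 alone and 0.25 with the block without untreated replicate 1, and ran from -0.47 to 0.10 with 1 library left out; the footprint median reversed to 0.28 with replicates 2 and 3 alone and ran from -0.68 to 0.08. Footprints at 6 h of tunicamycin gave 8 calls with no filter and with DESeq2, 0 to 1 with 1 library left out, and medians of -2.41 to -1.62, or -1.45 with replicates 2 and 3 alone. Footprints of thapsigargin at 6 h gave 5 calls with no filter and 6 with DESeq2, with medians of -3.63 to -2.08 when 1 library was left out, and at 2 h of -1.51 to -0.66. The median change in translational efficiency at 2 h reversed to 0.04 with the replicate block and ran from -0.37 to 0.52. The cause was not tested in any of these.

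Over all genes, RNA calls at 6 h of tunicamycin were 617 in the fit of the text, 2485 with DESeq2, 1624 with the replicate block, 187 to 963 with 1 library left out, 5477 with replicates 2 and 3 alone and 7439 with the block without untreated replicate 1. At 2 h they were 4, with 68 by DESeq2, 8 with the replicate block (whose numbers correlated at 0.0733 to 0.444 between untreated and 2 h and were not taken as pairs), 2 with the compared groups alone, 4 to 7 with 1 library left out, 1328 with replicates 2 and 3 alone and 791 with the block without untreated replicate 1. Thapsigargin RNA calls at 6 h (737) were 414 with library size alone, 3528 with DESeq2, 0 with the compared groups alone, 178 to 2411 with 1 library left out and 8333 with the block without untreated replicate 1; at 2 h (41) they were 20, 770, 0, 7 to 107 and 3995 in the same order. Between the drugs at 2 h (11) they were 250 with DESeq2 and 0 with other scaling or with 1 tunicamycin library left out. Footprint calls at 6 h of tunicamycin (163) were 745 with no filter, 686 with DESeq2, 416 with replicates 2 and 3 alone and 34 to 166 with 1 library left out; at 2 h (0) they were 47 with no filter and 4 with DESeq2. Footprint calls of thapsigargin (189 at 6 h, 16 at 2 h) were 731 and 189 with no filter, 1046 and 188 with DESeq2, 0 and 0 with the compared groups alone, and 63 to 300 and 3 to 26 with 1 untreated library left out. In the fits run with it, the replicate block changed no call of the 10 genes beyond those given; it was not fitted for thapsigargin footprints, whose labels carry no replicate number, between the drugs at 6 h, or for translational efficiency other than at 2 h of tunicamycin. For 6 h against 2 h of tunicamycin, where the block was added after seeing the data, it called 5 of the 10 and 1121 genes in place of 3 and 305, and no other alternative was run. The low footprint counts of APLN, C4orf54, DLX5 and S1PR5 at 6 h limit their precision.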
